A study of Homo sapiens with 1 sample.

Results

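The family of miR-28, miR-151 and miR-708 was examined on 1 microRNA (miRNA) array of DLD-1, an established human colorectal carcinoma cell line. Its 7 members, chosen by name, were hsa-miR-28-5p, hsa-miR-28-3p, hsa-miR-151a-5p, hsa-miR-151a-3p, hsa-miR-151b, hsa-miR-708-5p and hsa-miR-708-3p, and all 7 were found by name among the 2549 human miRNAs of the array. The cells carried a negative control siRNA (si-NC), were grown in RPMI medium with fetal bovine serum and were lysed for total RNA. The study used this array as the control for depletion of circLONP2, a circular RNA. The depleted cells were not analysed here, so there was no comparison of groups to test. Biological replicates were lacking as well (n = 1 array), and every error below is technical.

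Mature miRNAs are trimmed from RNA hairpins, and either arm of the hairpin (5p or 3p) can be loaded into Argonaute. It then recognises target messages mainly through its seed, bases 2 to 8. The hairpins of miR-28, miR-151a and miR-708 belong to a single sequence family, and those of miR-28 and miR-151a are related to LINE-2 repeats. Each of these hairpins lies inside a protein-coding gene, and where both share a strand the precursor can be made together with the host message. The arms of miR-28 have been studied for separate effects in colorectal cancer cells. Other work has studied miR-151a with its host gene in cell migration and miR-708 with its host gene under endoplasmic reticulum stress.

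The RefSeq gene table on GRCh38.p14 placed MIR28 inside LPP, which encodes a LIM protein of focal adhesions, with both on the plus strand. MIR151A lay inside PTK2, which encodes focal adhesion kinase, and the strands of this pair were not compared. MIR708 lay inside TENM4, which encodes a teneurin, a large cell-surface protein, with both on the minus strand. MIR151B lay within EVL, which encodes an actin-regulating Ena/VASP protein, but on the opposite strand (minus, against plus for EVL). Of these hosts, LPP and PTK2 held 1 miRNA gene each, while TENM4 also held MIR5579 and EVL also held MIR342.

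The RefSeq mature sequences (GRCh38.p14) covered 3 of the 7 members and 2248 of the 2549 miRNAs of the array. They are shown because the seed is what groups these miRNAs by targets, and because miR-28 and miR-708 differed in detection. Capitals mark the seed, and each sequence is written 5′ to 3′. The first lies at chr3:188688834-188688855 on the plus strand, the next pair at chr11:79402077-79402099 and chr11:79402032-79402053 on the minus strand, and the last, which is no member, at chr4:143343469-143343491 on the plus strand.
hsa-miR-28-3p: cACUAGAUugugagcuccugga
hsa-miR-708-5p: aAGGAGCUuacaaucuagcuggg
hsa-miR-708-3p: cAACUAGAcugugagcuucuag
hsa-miR-3139: uAGGAGCUcaacagaugccuguu

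The 3p arms of miR-28 and miR-708 matched at 17 of 21 positions when miR-708-3p was shifted by 1 base, and their longest common run was 8 bases. That shift also moves the seed, so ACUAGAU of miR-28-3p and AACUAGA of miR-708-3p are different 7-base seeds. The seed of miR-708-5p, AGGAGCU, was shared with 1 miRNA outside the family among those with a sequence, miR-3139. None of them shared a run of 12 or more bases with these 3 members. Shared seeds and runs were not examined for the other 4 members. The 5p arms of miR-28 and miR-708 were thus not compared, and whether miR-28-5p has the seed of miR-708-5p was not examined. No sequence is given for miR-28-5p, miR-151a-5p, miR-151a-3p or miR-151b.

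The family was read by 20 probes in 140 spots, against 50980 spots for all human miRNAs. The array held no saturated spot, and after background subtraction its 1000 negative control spots centred on 0.0894 (median), with a 99th percentile of 16.1. Of a set of 10 miRNAs typical of colon epithelium, such as miR-192-5p and miR-200b-3p, all 10 were called detected. Total gene signals of this colon set ran from 52.2 for miR-375 to 9249 for miR-200b-3p. Of 14 markers of blood, muscle, stroma, vessel, liver and neural cells, 5 were called detected, against 44.4% of all miRNAs on the array. These were miR-142-3p, miR-223-3p, miR-451a, miR-126-3p and miR-9-5p, with total gene signals from 21.5 to 695, overlapping those of the colon set. Their part in any signal of the family was not tested.

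Members named for hairpins in LPP, PTK2 and EVL gave a signal, and those of the TENM4 hairpin did not. The array read mature miRNAs, so the host messages and the activity of the loci were not measured. The scanner software called 5 of the 7 members detected, meaning that at least 1 probe exceeded 3 times its error, while it called 44.4% of all miRNAs on the array detected. Of all spots of the 7 members, 69.3% were well above background, against 34.3% of all miRNA spots. By member, these were 97 of 100 spots of the 5 detected members and 0 of 40 of the 2 undetected ones. That split is no separate evidence, since the call rests on the same spots. Each of the other 5 detection rules gave the same count of 5, but all use the same spots. Those based on 3 times the error and on the lowest deposited value follow from how undetected miRNAs are marked. Those based on spots well above background use a flag of the same software.

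**Figure D1:**
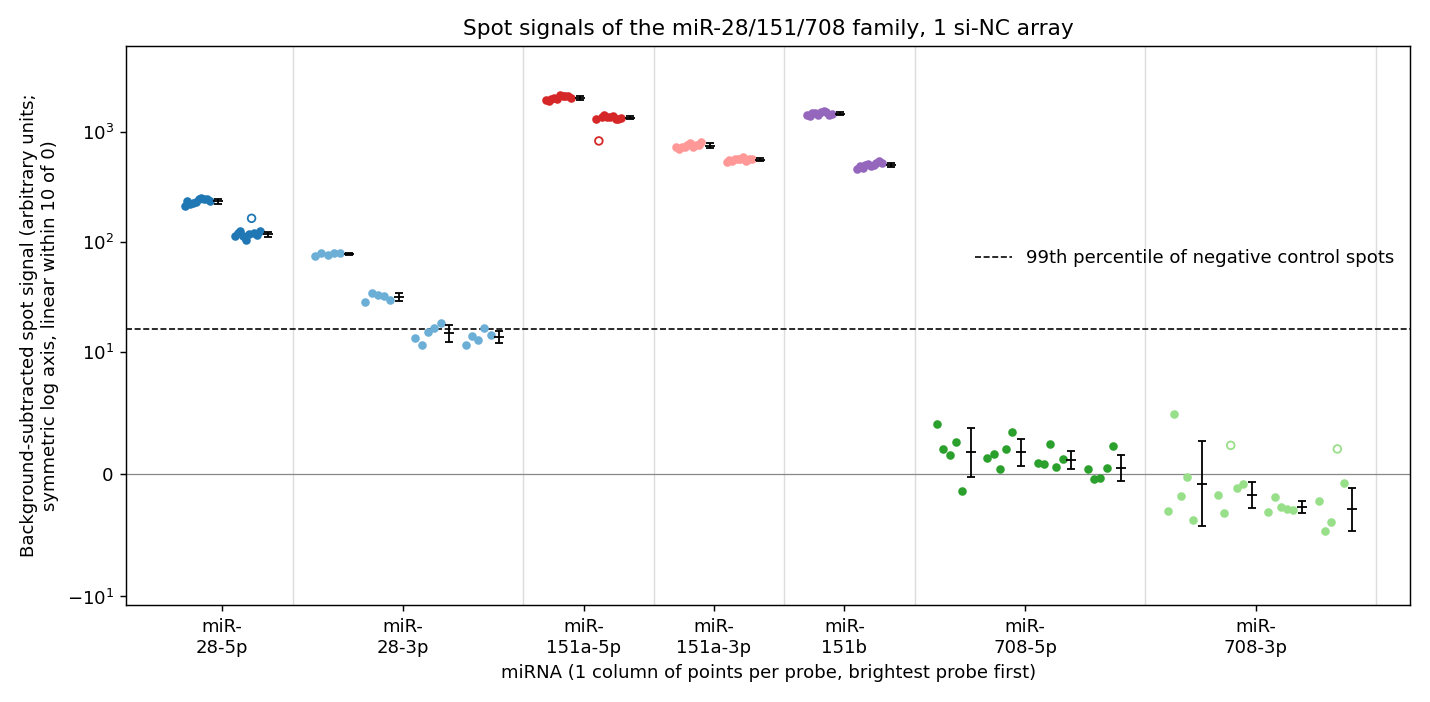
Background-subtracted signal of each of the 140 spots (vertical axis, arbitrary units, symmetric log scale that is linear within 10 of 0), by miRNA and probe, from the 1 si-NC array. Open circles are spots the software set aside as outliers, black bars are the mean ± SD of the remaining spots of a probe, and the dashed line is the 99th percentile of negative control spots (16.1). All spots of the miR-151 members lie above 460, the 2 dimmer probes of miR-28-3p straddle the line, and all miR-708 spots lie below 5.

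The members named for the PTK2 hairpin were read on both arms. For miR-151a-5p the 10 spots of the brighter probe ran from 1889 through a median of 2009 to 2133, with a mean of 2019.95 ± 80.9 (SD, 10 spots). Those of the other probe ran from 823 through 1344 to 1407, where the lowest was an outlier, and the mean without it was 1342 ± 35.6 (SD, 9 spots). Over its probes the miRNA had a total gene signal of 615 ± 44.4, the summed probe signal with the error of the software, which is on a scale of its own and not that of single spots.

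For miR-151a-3p the spots ran from 702 through 744 to 808 on the brighter probe and from 528 through 560 to 593 on the other. The means were 748 ± 32.3 and 556 ± 18.7 (SD, 10 spots each), and the total gene signal was 238 ± 17.1. Probes named for both arms of the miR-151a hairpin were thus far above the negative controls, and for each arm 20 of 20 spots were well above background.

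The related miR-151b, whose gene lies within EVL, was bright as well. Its brighter probe gave spots from 1395 through 1456 to 1527 (mean 1459 ± 50.8, SD, 10 spots) and its dimmer probe from 460 through 501 to 543 (mean 499 ± 24.8, SD, 10 spots), for a total gene signal of 358 ± 28.2. The spot ranges of the 2 probes did not overlap. The mature sequences of miR-151b and miR-151a-5p are near-identical, so signal cannot be assigned to one of them with confidence, and whether probes named for one bind the other was not tested. The other miRNA gene inside EVL, MIR342, lies on the plus strand like its host. Neither of its arms was called detected, with 0 of 20 spots well above background for miR-342-5p (-3.94 to 7.60, median 1.36) and 0 of 20 for miR-342-3p (-3.41 to 0.634, median -1.06).

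Probes named for the LPP hairpin gave lower readings on both arms. For miR-28-5p the spots ran from 212 through 234 to 249 on the brighter probe (mean 233 ± 11.8, SD, 10 spots) and from 103 through 118 to 163 on the dimmer probe, where the highest was an outlier (mean without it 117 ± 6.67, SD, 9 spots). The total gene signal was 63.97 ± 4.82, and 20 of 20 spots were well above background.

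For miR-28-3p the 4 probes fell apart. The brightest had a mean of 77.3 ± 2.06 and the next 31.4 ± 2.56, while the others had means of 14.8 ± 2.58 and 13.7 ± 1.79 (SD, 5 spots each). The last 2 means did not reach the 99th percentile of the negative controls (16.1), and 4 and 3 of their 5 spots were well above background. The total gene signal was 12.5 ± 0.919, of which the brightest probe gave 56.3%.

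Probes named for the hairpin in TENM4 gave no signal above background on either arm. For miR-708-5p the 20 spots ran from -1.39 through a median of 1.26 to 4.13, and 3 were below 0. For miR-708-3p they ran from -4.64 through -2.02 to 4.91, and 17 were below 0. Both ranges lay below 16.1, that 99th percentile, and 25.1% of negative control spots exceeded the median of miR-708-5p, against 92.1% for miR-708-3p.

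The nearest of their 8 probes to detection belonged to miR-708-5p, with a summed signal of 0.163 where 3 times its error was 0.720. A level below that limit cannot be read from this array, so the members were not detectable rather than absent. The other miRNA of that host, miR-5579, was not called detected either. Its 3p arm had 0 of 20 spots well above background, and its 5p arm had 2 of 20, both outliers, around a median of -1.32. The seed partner miR-3139 was not called detected, with 0 of 20 spots well above background and a median of -2.61.

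Arm balance was read by detection, since different probes read the arms and their signals do not measure the arms in molecules. Of the 3 hairpins with both arms on the array, miR-28 and miR-151a had both arms called detected and miR-708 neither. Over the 810 pairs of a 5p and a 3p arm on the array, 28.6% had both detected and 36.2% had neither, while 20.1% had the 5p arm alone and 15.1% the 3p arm alone. Set side by side, the total gene signals were 63.97 ± 4.82 for miR-28-5p and 12.5 ± 0.919 for miR-28-3p, and 615 ± 44.4 for miR-151a-5p and 238 ± 17.1 for miR-151a-3p. As said above, signal cannot be assigned with confidence between miR-151a-5p and miR-151b. No hairpin of the family had a detected arm opposite an undetected one.

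The detected members were placed by rank among the detected miRNAs. Over the 1133 detected miRNAs the median total gene signal was 12.5, between quartiles of 4.99 and 52.0. The signal of miR-151a-5p was higher than that of 92.9% of detected miRNAs, miR-151b than 91.3%, miR-151a-3p than 89.2%, miR-28-5p than 77.8% and miR-28-3p than 50.4%. These are ranks of signals and not of amounts of RNA, and the highest signal of the array was 43459.

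**Figure D2:**
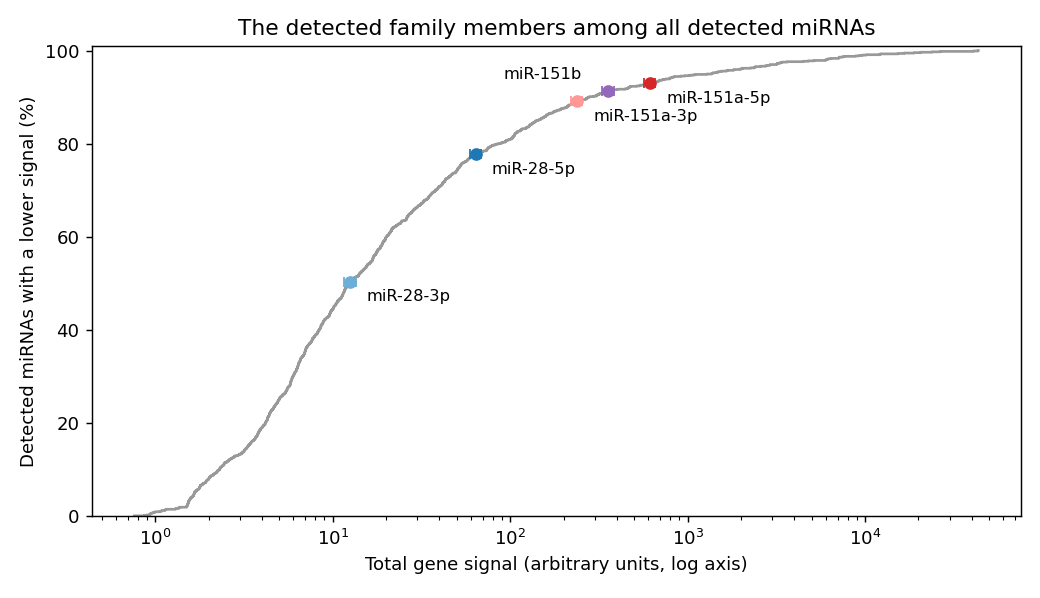
Total gene signal (horizontal axis, arbitrary units, log scale) against the percentage of the 1133 detected miRNAs with a lower signal (vertical axis); the grey line is all detected miRNAs, and points are the 5 detected members with the error of the software as horizontal bars. The miR-151 members lie at 89.2% to 92.9%, miR-28-5p at 77.8% and miR-28-3p at 50.4%.

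Levels were also put on a log2 scale whose 0 is the 75th percentile of the spots of detected miRNAs (a signal of 143). There miR-151a-5p lay at 3.53 ± 0.05 (SD of spots around their own probe mean, 19 spots). The levels were 2.58 ± 0.06 for miR-151b and 2.18 ± 0.06 for miR-151a-3p (20 spots each), 0.21 ± 0.08 for miR-28-5p (19 spots) and -2.44 ± 0.17 for miR-28-3p (20 spots). The median of the 5 was 2.18. The negative level of miR-28-3p turned to 0.0048 when the percentile was taken over all miRNA spots. In the values that the authors deposited after quantile normalization, the same members stood at 9.14 for miR-151a-5p, 8.56 for miR-151b, 7.97 for miR-151a-3p, 6.14 for miR-28-5p and 3.77 for miR-28-3p on the log2 scale. Both miR-708 arms had 2.32, the lowest value of that table.

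Replicate spots of a probe lay close together, and different probes of a member could lie further apart. Over the 12 probes of the detected members the coefficient of variation (CV) between spots had a median of 4.65% and ran from 2.65% to 17.4%, where the highest was a dim probe of miR-28-3p. The median was 8.74% over the 1943 probes of the array for which 50% or more of the spots were well above background. Outliers made up 4 of the 140 family spots (2.86%), against 4.51% of all miRNA spots.

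From brightest to dimmest probe the difference was 2.49 ± 0.09 (log2, SE from replicate spots) for miR-28-3p, 1.55 ± 0.03 for miR-151b and 1.00 ± 0.04 for miR-28-5p. The differences were 0.59 ± 0.02 for miR-151a-5p and 0.43 ± 0.02 for miR-151a-3p. Thus 3 of 5 members reached a difference of 1, a size met by 19.6% of the 801 detected miRNAs with 2 or more probes above background. With outlier spots kept, miR-28-5p came to 0.94 and the count to 2. The median difference was 0.35 over all 801, while it was 1.17 over the 57 miRNAs read by 4 such probes, as miR-28-3p was, and 0.32 over the 683 read by 2.

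**Figure D3:**
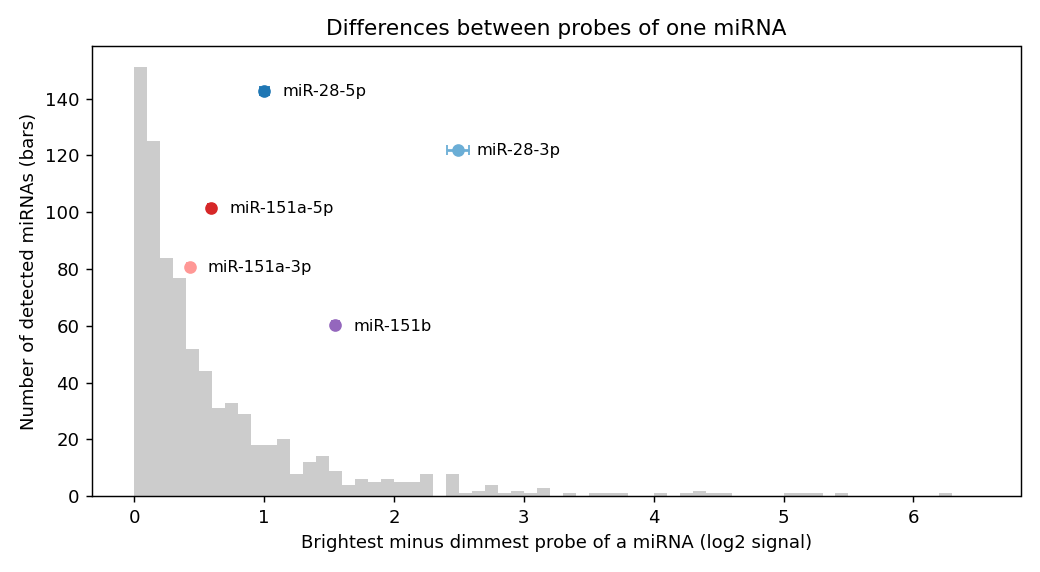
Difference between the brightest and the dimmest probe of a miRNA (horizontal axis, log2 signal). Bars count the 801 detected miRNAs with 2 or more probes above background (vertical axis), and points show the 5 detected members with their SE, at heights chosen only to keep them apart. The members run from 0.43 for miR-151a-3p to 2.49 for miR-28-3p.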

How the data were processed

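RNA of 1 si-NC sample was hybridised to 1 single-colour Agilent array. Per the labels it was labelled with Cyanine 3-pCp, while the methods of the study name a cDNA kit. Per the file headers, Feature Extraction 11.0.1.1 gave the deposited intensity of each spot, background-subtracted and not normalized between arrays, on a design of the hg19 build. The authors also deposited log2 values, quantile normalized in GeneSpring.

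Members and lists were chosen with earlier results of these data known. Detection, outlier and background flags were those of the software. For each of the 1133 detected miRNAs, adding up the probes that exceeded 3 times their error returned the total gene signal (tolerance 0.1%). Outlier and control spots were left out of means and levels. Spot ranges include outliers. The CV and the probe difference needed 50% of the spots of a probe well above background. Named miRNAs were the members, those sharing a seed, a run of 12 bases or a host gene with one, and cell markers. Normexp (offset 50, on the median spot signal) used R 4.3.3 with limma 3.58.1, and the rest used Python 3.11.15 with numpy 2.4.6, pandas 2.3.3 and matplotlib 3.10.9. The spot and probe calculations were checked on simulated spots. Of columns of other samples, 0 were left out. The single array limits the precision.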

Additional observations from a re-analysis of the deposited data

How the results depend on the processing

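The counts of 5 detected members and 2 hairpins with both arms detected, and the undetected state of miR-3139 (0 of 1 seed partners detected, with seeds known for 3 of the 7 members), were the same under all 5 other detection rules, of which those based on 3 times the error and on the lowest deposited value follow from how the software and the table mark undetected miRNAs. The median log2 level of the detected members, 2.18, moved to 4.62 with the 75th percentile over all miRNA spots, whose reference signal is 26.3 in place of 143, and to 1.82 with normexp, where the cause was not tested. It stayed within the SD of replicate spots with outlier spots kept and with deposited values, where the median is the level of miR-151a-3p. With deposited values the levels of miR-28-5p, miR-28-3p, miR-151a-5p and miR-151b moved by more than their own SD. The percentile over all miRNA spots turned the level of miR-28-3p from -2.44 to 0.0048. Besides that reversal, levels of single members moved in 12 cases, those with deposited values among them. The median CV and the median difference between probes stayed within their SD over probes or members in every setting. The total gene signals were compared only with the sum over all probes of a member. Every probe of the detected members exceeded 3 times its error, so that sum equals the total by construction. Whether the total gene signals depend on the processing was thus not tested. Signal over background limits miR-28-3p and the miR-708 arms. No paired analysis was possible because there is 1 array and 1 group.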
